A study of Mus musculus with 4 samples.

Results

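Uromodulin, the protease that releases it and the pair of sodium, potassium and chloride cotransporters called NKCC were followed in kidney tubules of mice on a low or a high magnesium diet. The members were all probes that the platform annotation assigns to Umod, Hpn, Slc12a1 or Slc12a2. These 4 genes, of 21713 on the array, had 1 probe each, so 4 of the 39429 probes tested, and each gene's result rests on a single probe. The tubules came from PV-eGFP transgenic mice on a B6D2F2 background, 6 to 8 weeks old, in which the parvalbumin promoter drives the fluorescent protein eGFP and marks the distal convoluted tubule. For 15 days the mice ate a diet with 0.02% magnesium by weight (low) or 0.48% (high), and RNA of 4000 sorted tubules was pooled per sample. Littermates on the 2 diets shared an array, and there were 4 arrays. The pairs were H1/L1 and H7/L7, with the low-diet sample in the dye Cy5, and H3/L2 and H8/L8, with the low-diet sample in Cy3. Whether a sample was 1 mouse or several is not stated, so p-values speak only for these 4 pairs. Those of the limma fit measure the spread between pairs that remains after a term for dye orientation, moderated over all probes. The reporter marks a segment and does not separate its cell types.

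Uromodulin, also called Tamm-Horsfall protein, is the main protein of normal urine. It is made chiefly by the thick ascending limb, the segment just before the distal convoluted tubule, and to a lesser degree by the early distal convoluted tubule. It reaches the apical membrane on a lipid (GPI) anchor, and hepsin, a membrane-bound serine protease encoded by Hpn, cuts it loose so that it can polymerise in the urine. Slc12a1 encodes NKCC2, the apical cotransporter of the thick ascending limb and the target of loop diuretics. Its transport sets up the voltage that drives magnesium and calcium through the junctions between the cells. Slc12a2 encodes NKCC1, a widely expressed and mostly basolateral relative that serves cell volume control and secretion.

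Upstream sequence is shown for Umod and Slc12a1, both genes of the thick ascending limb but with unlike ratios, because factors that act on such genes are described below. Each window holds the 250 bases before a transcript start, from RefSeq on GRCm38.p6, written 5′ to 3′ along the gene. For Slc12a1 that start is not the outermost one, so the last 90 bases of its window lie inside the annotated gene. The Umod window is chr7:119479263-119479512 on the minus strand and the Slc12a1 window is chr2:125152350-125152599 on the plus strand. Capitals mark GTTAAT, a half-site of the transcription factor HNF1.
Umod: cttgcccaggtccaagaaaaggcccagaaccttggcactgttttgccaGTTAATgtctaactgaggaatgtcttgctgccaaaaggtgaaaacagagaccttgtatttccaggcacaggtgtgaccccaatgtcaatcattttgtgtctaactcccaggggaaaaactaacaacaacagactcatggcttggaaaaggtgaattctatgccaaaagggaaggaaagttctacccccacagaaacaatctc
Slc12a1: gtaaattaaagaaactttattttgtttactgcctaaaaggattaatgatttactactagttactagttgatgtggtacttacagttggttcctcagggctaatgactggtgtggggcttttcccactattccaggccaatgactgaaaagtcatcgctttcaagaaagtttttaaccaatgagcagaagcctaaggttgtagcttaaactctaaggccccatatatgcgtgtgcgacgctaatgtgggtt
The half-site occurred 1 time in the Umod window, 202 to 197 bases before the start, and 0 times in the windows of Slc12a1 and Hpn, on either strand. Hpn was searched in more than 1 window, and that at chr7:31110998-31111247 lies inside the annotated gene. Of 32851 promoter windows of the same length, 6.43% held the half-site. The letters AAGGTCA, a half-site of oestrogen-related receptors, and GCCNNNGGC, a site of AP-2 factors, occurred 0 times in the windows of all 3 genes, against 4.08% and 13.7% of all windows. These are letter matches that overlap no other motif searched, chosen after the array values were seen. Only exact letters were counted. The Slc12a1 window holds attaat, which differs from the HNF1 half-site in its first letter alone. The counts therefore do not show that Slc12a1 lacks an HNF1 site, and binding was not tested.

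Umod had the largest change of the 4 genes. Levels are given as normalized intensities of the probe in arbitrary units, made comparable between arrays, and the level of a gene is compared only within its probe. In the low-diet samples the Umod level was 37438 on H1/L1, 38136 on H7/L7, 41582 on H3/L2 and 58841 on H8/L8. In the high-diet samples it was 14206, 12017, 19040 and 19021 in the same order. The lowest low-diet sample stood above the highest high-diet sample, so the diets did not overlap. Among all probes, 4.81% had all 4 low-diet samples above all 4 high-diet samples.

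Within the pairs, the log2 ratio of low over high diet for Umod was 1.40 on H1/L1, 1.67 on H7/L7, 1.13 on H3/L2 and 1.63 on H8/L8. The mean was 1.46 ± 0.25 (SD, n = 4), which is 2.74-fold higher on the low diet, with a 95% confidence interval of 2.30-fold to 3.27-fold. Umod thus rose in 4 of 4 pairs (limma, adjusted p = 0.0127 over all probes). This ratio ranked 10 among the 39429 probes by size of rise. It was 1.53 on average with the low diet in Cy5 and 1.38 with it in Cy3, and the dye term of the fit was 0.08 (unadjusted p = 0.464). Without pair H1/L1 the log2 ratio was 1.52 and the adjusted p 0.0518, so the call then ended while the value stayed.

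The Umod spots were bright, between 204 and 1222 times the local background, and none of the 8 readings was saturated. Before normalization they read 26154 to 56806 in the low-diet samples and 9187 to 27011 in the high-diet samples. In the low-diet sample of H8/L8 the Umod spot was the brightest of all probes in its channel, at 47144. Its ratio on that array was 1.63, between those of the other pairs.

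**Figure D1:**
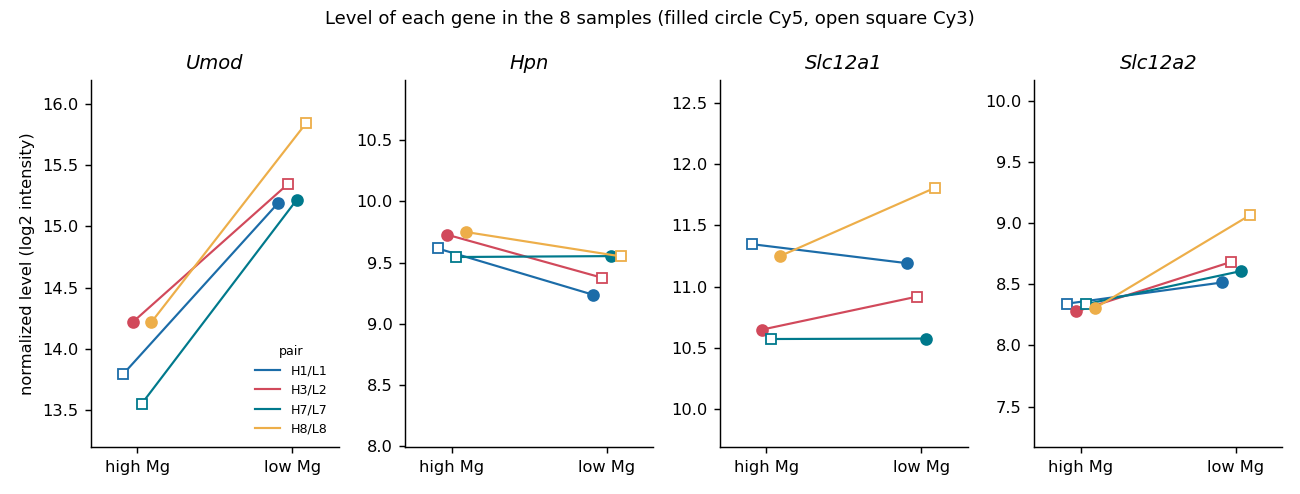
Normalized level (log2 intensity, y axis, each panel spanning the same range) of Umod, Hpn, Slc12a1 and Slc12a2 in the high-diet and low-diet sample of each pair, joined by a line; filled circles were labelled with Cy5 and open squares with Cy3. The diets do not overlap for Umod and Slc12a2 and overlap for Hpn and Slc12a1.

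Hepsin did not share the rise of its substrate. The Hpn level was 604 on H1/L1, 751 on H7/L7, 665 on H3/L2 and 750 on H8/L8 in the low-diet samples. In the high-diet samples it was 784, 747, 848 and 861. The diets overlapped narrowly: the low-diet samples of H7/L7 and H8/L8 lay just above the lowest high-diet sample, that of H7/L7. The log2 ratios were -0.38 on H1/L1, 0.01 on H7/L7, -0.35 on H3/L2 and -0.20 on H8/L8. The estimate of -0.23 ± 0.18 (SD, n = 4) had a 95% interval from -0.42 to -0.04 but did not pass over all probes (limma, adjusted p = 0.163). In the alternative in which outlying local backgrounds were replaced, the H7/L7 ratio was -0.03 and 4 of 4 pairs lay below 0 (adjusted p = 0.117).

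Slc12a1, the cotransporter that marks the thick ascending limb, showed no change past the threshold. Its level was 2338 on H1/L1, 1526 on H7/L7, 1935 on H3/L2 and 3588 on H8/L8 in the low-diet samples. In the high-diet samples it was 2604, 1522, 1605 and 2437. The pairs differed more from each other than the diets did, and H1/L1 and H8/L8 were the higher pairs in both diets. The log2 ratios were -0.16, 0.00, 0.27 and 0.56 in the same order of pairs, with a mean of 0.17 ± 0.31 (SD, n = 4; limma, adjusted p = 0.205). The 95% interval of the estimate ran from 0.01 to 0.33, which is 1.01-fold to 1.25-fold. With the low diet in Cy5 the mean was -0.08, and with it in Cy3 it was 0.41. The dye term of -0.24 had an unadjusted p of 0.0109 and an adjusted p of 0.183. An unadjusted p under 0.05 for the dye term was found for 16.8% of all probes. After adjustment the dye term passed for 0 of the 4 members and for 0.00507% of all probes. The dye term cannot be told apart from a difference between the pairs of both orientations.

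Slc12a2, the NKCC1 gene, rose slightly on the low diet. Its level was 366 on H1/L1, 390 on H7/L7, 411 on H3/L2 and 535 on H8/L8 in the low-diet samples. In the high-diet samples it was 324, 323, 310 and 316, a narrow range of 318 ± 7 (SD, n = 4). Every low-diet sample lay above every high-diet sample, as for 4.81% of all probes, with H8/L8 the highest. The log2 ratios were 0.17, 0.27, 0.41 and 0.76, and their mean of 0.40 ± 0.26 (SD, n = 4; 1.32-fold) passed narrowly (limma, adjusted p = 0.0428). The 95% interval was 1.17-fold to 1.49-fold. With the low diet in Cy5 the mean log2 ratio was 0.22, and with it in Cy3 it was 0.58. The dye term of the limma fit was -0.18 (unadjusted p = 0.0431, adjusted p = 0.285). The spots were dim, at 5.90 to 13.9 times the local background. The call was lost without H1/L1 (log2 ratio 0.43, adjusted p = 0.125), without H7/L7 (0.38, adjusted p = 0.117), without H8/L8 (0.31, adjusted p = 0.0736) and without the dye term (adjusted p = 0.128). With plain background subtraction it was lost as well, at 0.47 (adjusted p = 0.0811).

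Thus 2 of the 4 members passed, both higher on the low diet. Of all 39429 probes 5.82% passed, 3.48% as higher and 2.35% as lower, and the median log2 ratio was 0.00. The ratios of Umod and Slc12a2 lay above 0 in all 4 pairs, and among all probes 24.6% had the same sign in all 4. The plot of all genes by brightness shows Umod among the brightest genes.

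**Figure D2:**
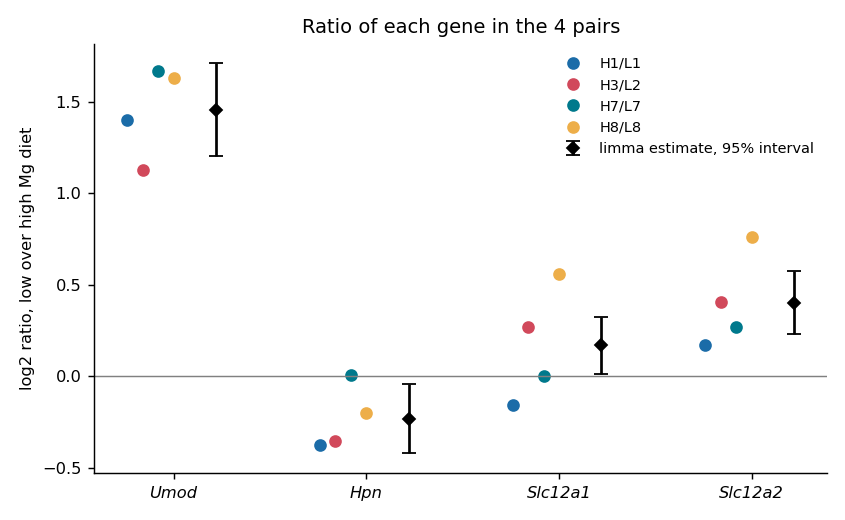
Log2 ratio of low over high magnesium diet (y axis) of the 4 genes in each pair (coloured points) with the limma estimate and its 95% interval (black diamonds and bars). Umod lies between 1.13 and 1.67 in every pair, and each pair of Hpn, Slc12a1 and Slc12a2 lies below the Umod value of the same pair.

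**Figure D3:**
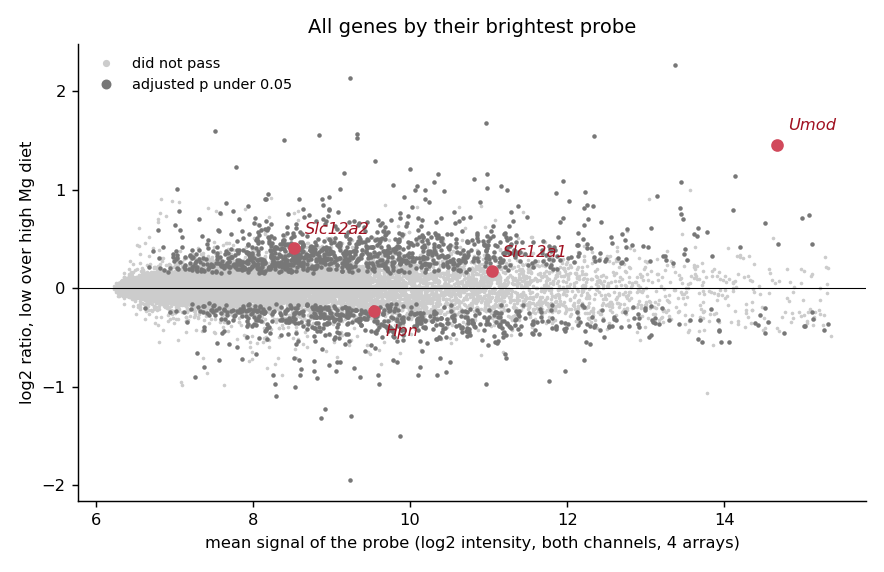
Log2 ratio of low over high diet (y axis) against the mean log2 signal (x axis) of the 21713 genes by their brightest probe; darker points passed at an adjusted p under 0.05. The 4 members are marked in red, with Umod far above 0 at high signal and Hpn below 0.

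Umod was then set against the other members on the same arrays. The log2 ratio of Umod exceeded that of Slc12a1 by 1.55 on H1/L1, 1.66 on H7/L7, 0.86 on H3/L2 and 1.07 on H8/L8, a mean of 1.29 ± 0.38 (SD, n = 4). Against Slc12a2 the mean excess was 1.05 ± 0.31, and against Hpn it was 1.69 ± 0.15. All 3 differences were above 0 in 4 of 4 pairs. The exact 2-sided sign-flip permutation test gave p = 0.125 for each (adjusted over the 3 comparisons, 0.125), which is the smallest p that 4 pairs allow.

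Other markers of the thick ascending limb were read beside Umod and Slc12a1. Leaving out both, 10 markers were measured, and their median log2 ratio was 0.03. Of these, 1 rose, 2 fell and the others did not pass. Kcnj1, the apical potassium channel ROMK that recycles potassium for NKCC2, rose by 0.66 ± 0.57 (adjusted p = 0.0181). With the low diet in Cy5 its ratios were 0.97 (H1/L1) and 1.31 (H7/L7), and with it in Cy3 they were 0.23 (H3/L2) and 0.13 (H8/L8). The Kcnj1 call was lost without the dye term (adjusted p = 0.213), without H3/L2 (0.0616), without H8/L8 (0.0668) and with plain background subtraction (0.0543). Casr and Ptger3 fell. The ratio of Casr, which senses extracellular calcium, was -0.75 ± 0.28 (adjusted p = 0.0129), and that of Ptger3, the prostaglandin receptor EP3, was -1.95 ± 0.35 (SD, n = 4; adjusted p = 0.00985). A second Ptger3 probe stood at -0.39 (adjusted p = 0.0358). Without H1/L1 the adjusted p of Casr was 0.0535. Pair by pair, the median of the 10 markers was -0.22 on H1/L1, -0.04 on H7/L7, -0.04 on H3/L2 and 0.24 on H8/L8.

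The Slc12a1 ratio was also lowest on H1/L1 and highest on H8/L8. Cldn16, a claudin of the magnesium-permeable junctions, had ratios of -0.29 on H1/L1 and 0.36 on H8/L8. The transcription factors Irx1 and Irx2 went from -0.13 and -0.22 on H1/L1 to 0.66 and 0.75 on H8/L8. Cldn10 and Enox1 went the same way, from -0.35 and -0.22 to 0.74 and 0.45. Other markers of the list did not follow this order: Kcnj1 was higher on H1/L1 than on H8/L8, Cldn19 stood at -0.15 on both, and Tmem207 at 0.01 and 0.03. Umod differed less between these pairs, at 1.40 and 1.63. A higher ratio on H8/L8 than on H1/L1 was not particular to thick ascending limb markers. The median of intercalated cell markers was -0.01 on H1/L1 and 0.40 on H8/L8, and that of podocyte markers -0.12 and 0.13. Medians of distal convoluted tubule markers (0.53 and 0.25) and principal cell markers (0.11 and -0.03) went the other way. H1/L1 and H8/L8 also differ in dye orientation. In the authors' processed log2 ratios, turned to low over high diet, Slc12a1 was instead lowest on H3/L2, at 0.06. It stood there at 0.13 on H1/L1 and 0.33 on H8/L8. The part of the marker levels in the Slc12a1 ratio was not tested. In pooled tubules, more cells of a type and more RNA per cell cannot be told apart.

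**Figure D4:**
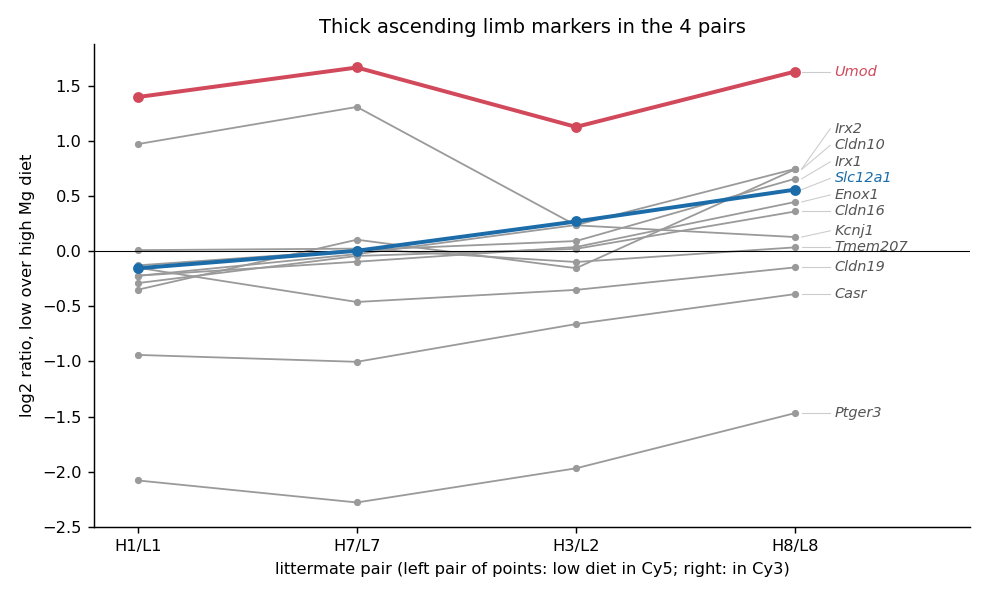
Log2 ratio of low over high diet (y axis) of 12 thick ascending limb markers in the 4 pairs (x axis, the pairs with the low diet in Cy5 first). Umod (red) lies above 1 throughout, Slc12a1 (blue) runs from -0.16 to 0.56 among Cldn16, Enox1, Irx1 and Irx2, and Ptger3 and Casr lie below 0 in every pair.

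Markers of the distal convoluted tubule and of other segments were checked against background in the sorted tubules. All 10 markers of the distal convoluted tubule were above background in all 8 samples, as were 11 of 12 of the thick ascending limb, 13 of 14 of the proximal tubule, 10 of 10 of intercalated cells and 4 of 4 of podocytes. Of all 21713 genes, 74.1% were above background in all 8 samples, so these counts alone do not set the markers apart from other genes. In every list each measured marker was above background in at least 1 sample. The share of all genes under that looser rule was not counted, and per sample 65.5% to 97.4% of all probes were above background. Summed levels add different probes and are carried by the brightest ones. The summed level of the 10 thick ascending limb markers without the members was 27643 to 34974 in the low-diet samples and 17187 to 31085 in the high-diet samples. That of the distal convoluted tubule markers was 39564 to 45630 against 13288 to 18666, and 5 of these 10 rose, among them Pvalb, whose promoter drove the reporter. The sodium chloride cotransporter gene Slc12a3, the classical marker of this segment, stood at 0.13 ± 0.27 (SD, n = 4) and did not pass (adjusted p = 0.467). The proximal tubule markers summed to 4663 to 5995 against 5509 to 12599, with 2 of 14 passing as lower (Slc5a2 and Kap). Their median log2 ratio was -0.58, and it was below 0 in every pair, at -1.07 on H1/L1, -0.12 on H7/L7, -0.78 on H3/L2 and -0.17 on H8/L8. Of the 14, 7 were below 0 in 4 of 4 pairs and 0 were above 0 in all 4. Intercalated cell markers, of which 0 of 10 passed, summed to 2773 to 4853 against 2785 to 4165. The Hpn ratios took the same order over the pairs as the proximal tubule medians. They were -0.38 on H1/L1, -0.35 on H3/L2, -0.20 on H8/L8 and 0.01 on H7/L7. The part of the segment makeup in the Umod, Hpn and Slc12a2 ratios was not tested.

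The pathway around the members was read from 7 lists with 80 measured genes beside the members. Of these, 8 rose, 3 fell and 69 did not pass, and their median log2 ratio was 0.02. Without Avpr2, whose spot was saturated, 8 rose and 2 fell among 79. Among all genes by their brightest probe, 7.82% passed, 4.88% as higher and 2.95% as lower.

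Of uromodulin and its relatives with the ZP domain, through which such proteins polymerise, 13 were measured. Besides Umod, only Gp2 rose; it encodes the GPI-anchored zymogen granule protein and is the closest relative of uromodulin. The ratios of Gp2 were 0.21 on H1/L1, 0.26 on H7/L7, 0.78 on H3/L2 and 1.38 on H8/L8, a mean of 0.65 ± 0.55 (SD, n = 4; adjusted p = 0.0388). A dimmer Gp2 probe stood at 0.21 ± 0.14 and did not pass (adjusted p = 0.0651). The brighter Gp2 probe was lower in both pairs with the low diet in Cy5 than in both with it in Cy3. A dye effect and a difference between these pairs cannot be told apart. Umod did not show this split and was highest on H7/L7, where Gp2 was low. The Gp2 call was lost without H1/L1 (adjusted p = 0.126), without H7/L7 (0.102), without the dye term (0.199) and with plain background subtraction (0.0689). The other 11 did not pass, and the list median was -0.01.

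Of the 13 serine proteases and their inhibitors, 1 rose. Tmprss2, a membrane-bound protease of the same class as hepsin, had ratios of 0.53, 0.49, 0.43 and 0.55 on H1/L1, H7/L7, H3/L2 and H8/L8, a mean of 0.50 ± 0.05 (SD, n = 4; adjusted p = 0.0128). Without H1/L1 its adjusted p was 0.0535, and with plain background subtraction 0.0514. Prss8, the GPI-anchored protease prostasin, stood at -0.12 ± 0.04 (adjusted p = 0.0950), and the matriptase gene St14 one of -0.05 ± 0.07. Spint2, an inhibitor of such proteases, stood at 0.22 ± 0.21 (adjusted p = 0.167).

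In the SLC12 family of cotransporters, 1 of 8 measured members passed, namely Slc12a2. The potassium chloride cotransporter gene Slc12a4 had a log2 ratio of -0.09 ± 0.04 and Slc12a7 of 0.08 ± 0.23 (SD, n = 4). Of 17 kinases and trafficking proteins that act on the NKCC transporters, only Wnk1 rose, at 0.67 ± 0.48 (adjusted p = 0.0277). Wnk1 had 2 further probes, with ratios of 0.06 and 0.11 that did not pass, so its change rests on the brightest probe. The pairs with the low diet in Cy5 stood at 1.25 (H1/L1) and 0.84 (H7/L7), those with it in Cy3 at 0.43 (H3/L2) and 0.15 (H8/L8). The Wnk1 call was lost without H3/L2 (adjusted p = 0.0821), without H8/L8 (0.0721), without H1/L1 (0.0652), without the dye term (0.153) and with plain background subtraction (0.0564). Stk39, which encodes the kinase SPAK that phosphorylates both cotransporters, had a log2 ratio of -0.17 ± 0.16, and its relative Oxsr1 one of 0.03 ± 0.14.

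Of 19 measured genes of salt and cation transport in the thick ascending limb, Kcnj1 and Pth1r rose. Pth1r, the receptor for parathyroid hormone, stood at 0.76 ± 0.27 (SD, n = 4; adjusted p = 0.0304). It passed without H3/L2 but not without H1/L1 (adjusted p = 0.0932), H7/L7 (0.0581) or H8/L8 (0.0753), nor with plain background subtraction (0.0605). Casr, Ptger3 and Avpr2 passed as lower, but the Avpr2 spot, for the vasopressin V2 receptor, was saturated in 3 samples. It was higher on the low diet in both pairs with that diet in Cy5 and lower in both with it in Cy3. A second Avpr2 probe stood at 0.03 (adjusted p = 0.817), and the call was lost whichever pair was left out (adjusted p from 0.0515 to 0.0748) and without the dye term (0.766), so the direction of Avpr2 is not settled. The chloride channel subunit Bsnd and the magnesium-related claudins did not pass.

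Among 9 measured transcription factors and cofactors of the distal nephron, 3 rose and the others did not pass. Pcbd1, a cofactor of HNF1, rose by 1.08 ± 0.24 (adjusted p = 0.0129). Esrrb, an oestrogen-related receptor, rose by 0.55 ± 0.18 (adjusted p = 0.0280) and Tfap2b, an AP-2 factor needed for the distal nephron in mice, by 0.44 ± 0.15 (SD, n = 4; adjusted p = 0.0368). The Esrrb call was lost whichever of the 4 pairs was left out (adjusted p from 0.0623 to 0.0714) and with plain background subtraction (0.0658), and a dimmer Esrrb probe had a log2 ratio of 0.06. Tfap2b did not pass without H1/L1 (adjusted p = 0.120), without H7/L7 (0.101) or with plain background subtraction (0.0767). Pcbd1 just missed the threshold without H8/L8 (adjusted p = 0.0501). Esrrg, a relative of Esrrb, had a log2 ratio of -0.02 ± 0.14. Umod and Pcbd1 were among the genes that the study picked from these arrays, so their direction here carries no independent weight.

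**Figure D5:**
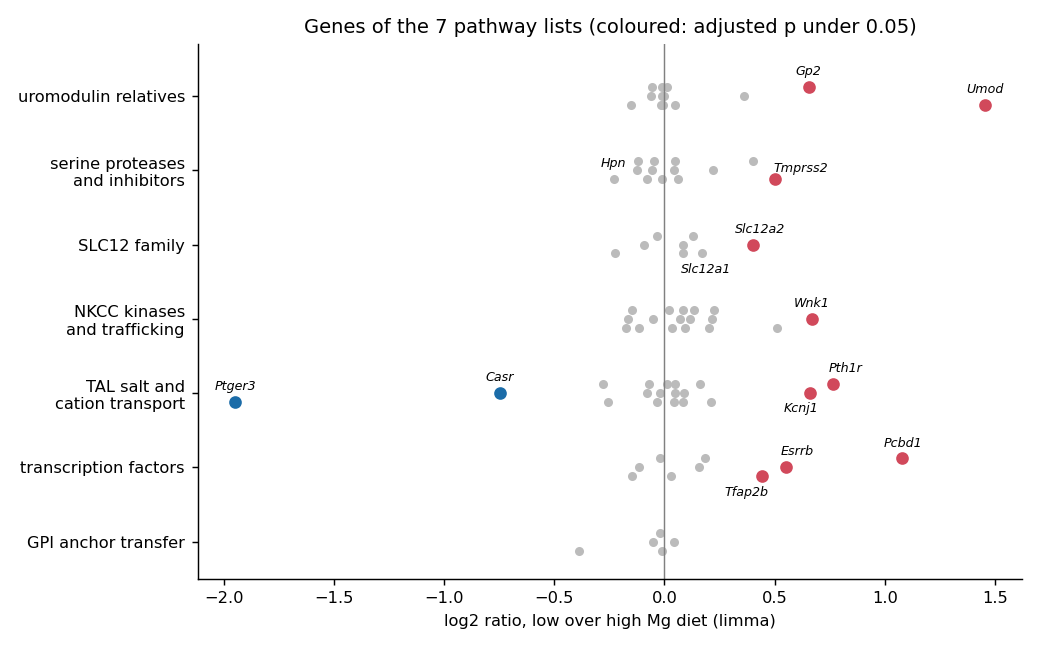
Log2 ratio of low over high diet (x axis, limma) of the genes of 7 pathway lists (rows; TAL, thick ascending limb), each point 1 gene by its brightest probe; coloured points passed at an adjusted p under 0.05, red as higher and blue as lower. Umod at 1.46 and Ptger3 at -1.95 are the extremes, and the saturated Avpr2 is left out.

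The genes most like Umod over the 4 pairs were sought by the smallest Euclidean distance between the 4 log2 ratios, among 16083 other genes above background in all 8 samples. Calb1, the calcium buffer calbindin-D28k, was the nearest at a distance of 0.54, with ratios of 1.42 on H1/L1, 2.14 on H7/L7, 1.22 on H3/L2 and 1.40 on H8/L8. It was followed by Gulo, which completes ascorbate synthesis in mice (0.63), the co-chaperone gene Dnaja4 (0.65), the kinase gene Prkd1 (0.66) and Unc5b, a netrin receptor gene (0.69). Without H8/L8 the adjusted p of Calb1 was 0.0627, against 0.0149 with all pairs. A second Calb1 probe had a log2 ratio of 1.26, whereas second probes of Dnaja4 and Prkd1 stood at 0.09 and 0.02. Slc12a2 lay at a distance of 2.17 and Slc12a1 at 2.66. Hpn, at 3.38, ranked 14828 among the 16083 genes by closeness.

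The authors' deposited table runs opposite to the direction used here, high over low, and listed a log2 value of -1.54 for Umod with a p of 0.0056. For Slc12a2 the authors' deposited table listed -0.42 with a p of 0.840, for Slc12a1 -0.18 and for Hpn 0.25, each of the latter with a p of 1. Thus only Umod among the 4 had a p under 0.05 in the authors' deposited table. In the authors' processed log2 ratios, turned to low over high diet, Slc12a1 was above 0 in 4 of 4 pairs, at 0.13, 0.23, 0.06 and 0.33 on H1/L1, H7/L7, H3/L2 and H8/L8. The ratios from the scans had been -0.16 and 0.00 on the first 2 of these pairs.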

How the data were processed

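Expression was measured on 4 arrays read in 2 colours, each a littermate pair. The deposited scans give, per the file headers, intensities per spot (mean and median signal and local background), not background subtracted. A table of the authors' processed values holds log2 ratios, found by comparison with the scans (r between 0.808 and 0.848 across brighter probes) to run channel 1 over channel 2, not turned for the dye swap, with medians from -0.0038 to 0.0047. How they were normalized is not stated in the sources used here. The authors' results table, from maanova per the file headers, lists log2 means and p-values, 287 of them under 0.05. No source used here states whether these were adjusted.

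From the scans, mean signals were corrected with normexp (offset 50) and normalized within arrays by loess, with 5791 control spots at weight 0. Levels add quantile normalization of the mean log2 signal between arrays, which leaves ratios as they are. All ratios were set to low over high. Channel 1 was Cy5 and channel 2 Cy3, per the labels. limma 3.58.1 in R 4.3.3 fitted diet and dye, 2-sided, with Benjamini-Hochberg adjustment over 39429 probes at 0.05; 2 residual degrees of freedom per probe remained. Every adjusted p is limma's over all probes unless another test is named. The fit was tested on simulated data. SDs over pairs include the dye effect, which the fit removes. On H7/L7, 2 spots had a local background over 50 units above their signal, and 1 on H1/L1. normexp then raised the background-subtracted signals of H7/L7 by a median of 121 and 160 units in the 2 channels, offset included, against 46.4 to 55.8 on the other arrays. The median absolute log2 ratio there was 0.0252, and 0.0799 with these backgrounds replaced by the array's median. The settings were kept as designed, and the replacement is given as an alternative.

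Background was the 99th percentile of 604 spots of a dim control probe, and a spot counted as saturated at a median of 65000 or more. Shares above background ran from 65.5% to 97.4% per sample. Of the probes, 6998 have no symbol here, and 2622 old symbols were updated through RefSeq (GRCm38.p6). A gene stands by its brightest probe. Named genes are the members, list genes past the threshold, the 5 genes nearest to Umod, and Slc12a3; list genes named that did not pass were chosen after their values were seen. Members and lists were chosen with earlier results of these data known. Protein sequences were not used here, and no sequence of Slc12a2 is shown.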

Additional observations from a re-analysis of the deposited data

How the results depend on the processing

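The direction of all 4 members held under each of the 15 alternatives run, of which 12 were planned and 3 were chosen after seeing the data (median pixel signals, outlying local backgrounds replaced, and the latter with arrays scaled). Hpn and Slc12a1 stayed short of the threshold in all 15. Umod stayed past it in 13 and Slc12a2 in 9. With a pair left out, the log2 ratio ranged from 1.33 to 1.58 for Umod, -0.33 to -0.13 for Hpn, 0.10 to 0.24 for Slc12a1 and 0.31 to 0.49 for Slc12a2. The probes past the threshold then numbered 83 (without H1/L1) to 863 (without H3/L2), with 225 without H8/L8 and 437 without H7/L7, against 2296, the genes 69 to 615 against 1699, and the list genes 3 to 7 against 11; fewer samples entered these fits. Without the dye term Slc12a2 did not pass at 0.40, and 824 probes, 651 genes and 7 list genes passed. With plain background subtraction Slc12a2 did not pass at 0.47, and the counts were 279, 189 and 3, with 73.1% of called probes higher against 59.7%. Arrays scaled to the same spread gave 0 probes, 0 genes and 0 list genes in limma, with 6245 probes at an unadjusted p under 0.05. Umod was then at 1.80 (adjusted p = 0.313) and Slc12a2 at 0.41 (adjusted p = 0.277). That scaling stretched H7/L7, where the Umod ratio became 4.16 against 0.90 to 1.15 elsewhere. With the 3 outlying backgrounds replaced, the same scaling gave 3114 probes, Umod at 1.47 (adjusted p = 0.0131) and Slc12a2 at 0.41 (adjusted p = 0.0298). The replacement alone gave 3138 probes (7.96%), Umod at 1.48 and Slc12a2 at 0.41 (adjusted p = 0.0366). With median centring in place of loess, 4 members had a dye effect past the threshold, against 0. For the 17 other named genes, 203 of 255 values kept their side of the threshold, 52 lost it and 0 reversed. The excess of Umod over each other member stayed above 0 in every alternative run for it. The fit is itself paired, since each ratio is taken within a littermate pair on 1 array. The number of arrays limits the precision, and the dim Slc12a2 spots are the closest to background.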

Other observations

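Genes of the complex that attaches GPI anchors, the step that uromodulin shares with Gp2 and prostasin, did not pass in limma, with 0 of 5 past the threshold and a median log2 ratio of -0.02. The one farthest from 0 was Pigt, with -0.74 on H1/L1, -0.33 on H7/L7, -0.12 on H3/L2 and -0.35 on H8/L8 (mean -0.39 ± 0.26, SD, n = 4; adjusted p = 0.0710). Of 5 markers of the macula densa, the sensor cells at the end of the thick ascending limb, 0 passed, and their median was -0.01.

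The kinase Wnk4, a regulator of the cotransporters, had a log2 ratio of 0.22 ± 0.22, and Sorl1, a sorting receptor that takes part in NKCC2 trafficking, one of -0.12 ± 0.09 (SD, n = 4). Mal, a raft protein that in rodents binds NKCC2 at the apical membrane, ran from -0.12 on H8/L8 to 1.27 on H1/L1 and did not pass (adjusted p = 0.104). Klk1, which encodes tissue kallikrein, a protease of the distal nephron, stood at 1.40 on H1/L1 and between -0.21 and 0.22 on the other pairs (adjusted p = 0.372).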
